A study of Mus musculus with 17 samples.

Results

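Late elongating spermatids (LES, 3 libraries) were compared with round spermatids (RS, 3 libraries), 6 of the 17 libraries of an RNA-seq study of mouse male germ cells. The members were taken by their labels: both stages were sorted by flow cytometry from the testes of C57BL/6JRj males labelled wild type and 3 months old, after staining with the DNA dye Hoechst and with SYTO 16. Both groups carry no transgene or deletion by these labels, and it is not stated that the 3 libraries of a stage were made from different mice. The p-values therefore reflect the spread among these libraries, which may be technical. The other libraries are earlier germ cells, early elongating spermatids (EES, 3 libraries) and 2 single spermatid libraries, and the comparison does not use them.

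Spermatids are the haploid cells that turn into sperm without further division. A round spermatid still transcribes its genome widely, builds the acrosome from the Golgi and starts the axoneme. During elongation the histones give way to transition proteins and then to protamines, the nucleus condenses and transcription shuts down, while stored mRNAs are translated to make the accessory structures of the tail and head. In sorted bulk RNA, fewer cells of a type and less RNA per cell cannot be told apart, and a level is always a share of the library: levels are given in RPKM, reads per kilobase of exon scaled to the reads of the library.

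The labels were checked against markers. Oaz3, an inhibitor of polyamine synthesis made in haploid germ cells, had 4261, 3940.2 and 4188 RPKM in the LES libraries, against 83.9, 119 and 139.7 RPKM in the RS libraries, and the groups lay far apart. The acrosomal genes Acrv1 and Spaca1, used as round spermatid markers, fell in LES: Acrv1 had 5.2, 4.17 and 7.81 RPKM in the LES libraries, against 33.4, 26.1 and 35.7 RPKM in the RS libraries, and Spaca1 had 5.2, 3.26 and 10.7 RPKM in the LES libraries, against 63.9, 56.4 and 57.2 RPKM in the RS libraries. The third such marker, the kinase Tssk1, did not: it had 89.8, 82.6 and 56.7 RPKM in the LES libraries, against 47.8, 56.4 and 57.2 RPKM in the RS libraries, LES replicate 3 lay within the RS range, and with median centring it passed as a rise (log2 fold change 2.01).

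On the deposited scale most genes tested were lower in LES, and 2 other scalings made the split more even. Of 10466 genes tested (1 RPKM or more in 3 or more of these 6 libraries), 6475 fell (61.9%) and 1809 rose (17.3%), with limma's adjusted p under 0.05 and a log2 fold change of at least 1 in size, so that 79.2% changed. The median log2 fold change over all genes tested was -1.74, and for 91.9% of the genes the LES and RS ranges were separate. With each library centred on the median of its genes, 3604 fell and 3360 rose, and after quantile normalization 3942 fell and 2917 rose, so each list below has its counts on the deposited scale followed by those after median centring. Over all genes tested, median centring gave 32.1% that rose and 34.4% that fell, and the shares to read the lists against are these and the 17.3% and 61.9% of the deposited scale. In all, 2342 genes had at least 1 RPKM in all 3 RS libraries and less in all 3 LES libraries, and 568 genes had the reverse. These genes passed the filter only through the stage in which they were higher, so their direction says nothing of its own. The same holds for every tested gene or locus below that was under 1 RPKM in all libraries of a stage.

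**Figure D1:**
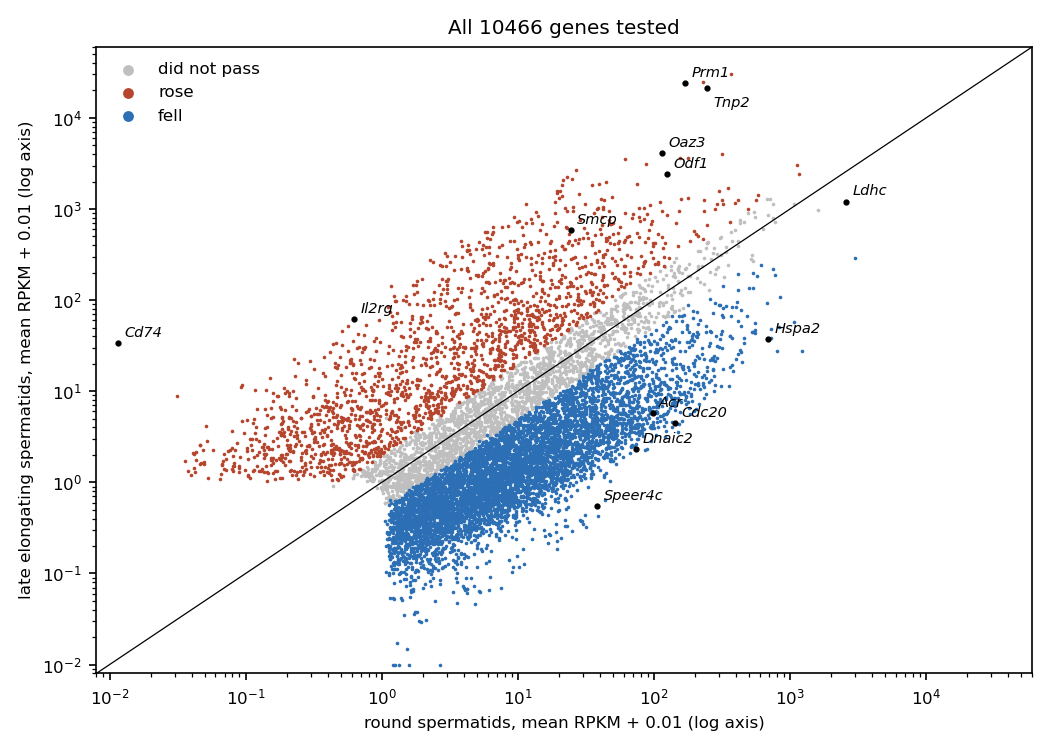
Mean RPKM plus 0.01 of each tested gene in late elongating spermatids (vertical, log axis) against round spermatids (horizontal, log axis), with red points for the 1809 genes that rose, blue for the 6475 that fell and grey for those that did not pass; the line marks equal levels. Prm1 and Tnp2 lie at the top, and most points lie below the line.

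The LES transcriptome was held by few genes. Counted over reads in annotated genes, 50% of the reads lay in 226, 218 and 236 genes in the LES libraries, against 825, 811 and 818 genes in the RS libraries. The 100 most abundant genes took 35.1 ± 0.524% of the reads in LES and 15.7 ± 0.0860% in RS (SD, n = 3 each; exact two-sided permutation p = 0.10, the smallest that 3 against 3 allows). By reads, Prm2 was the most abundant gene in each LES library, and in each RS library it was Ldhc, the lactate dehydrogenase of germ cells, which itself had 1329, 1180.2 and 1111 RPKM in the LES libraries, against 2438, 2724 and 2589 RPKM in the RS libraries, a fall on the deposited scale (log2 fold change -1.10) that median centring turned round (0.43). Depth was 97.2 to 113.8 M reads in LES and 107.9 to 137.8 M reads in RS, and 7021 to 8368 genes reached 1 RPKM in an LES library, against 9976 to 10147 in an RS library.

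The strongest rises by level were in the genes that repackage the genome. All 5 tested genes of protamines and transition proteins rose (17.3% of all genes), on the deposited scale and under both other scalings, with log2 fold changes of 5.18 to 7.19. Prm1, which encodes protamine 1, had 23810.1, 24591 and 23495 RPKM in the LES libraries, against 124, 152 and 234 RPKM in the RS libraries. Prm2, whose product is cut down to mature protamine 2, had 25434, 25264 and 23841 RPKM in the LES libraries, against 137, 242 and 304 RPKM in the RS libraries. The LES libraries lay close together, while RS replicate 1 was lowest and RS replicate 3 highest for both.

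Transition proteins replace histones before the protamines arrive. Tnp1 had 34127, 29189 and 26948 RPKM in the LES libraries, against 219, 352 and 530.3 RPKM in the RS libraries, with a log2 fold change of 6.44 ± 0.28 (SE; limma's adjusted p = 1.95e-07). Tnp2 had 20082, 23574 and 19522 RPKM in the LES libraries, against 165, 226 and 348 RPKM in the RS libraries, with a log2 fold change of 6.48 ± 0.24 (SE; limma's adjusted p = 1.06e-07). For both, the lowest LES library was above the highest RS library by a wide margin. The 5 genes together held 7.25%, 7.24% and 6.69% of the reads in annotated genes in the LES libraries, against 0.0524%, 0.0741% and 0.107% in the RS libraries. Prm3, left out by the naming rule and added with its values known, rose less, to 1111, 1139 and 1125 RPKM in LES, against 25.2, 33.3 and 35.6 RPKM in RS.

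The promoters of 4 of these genes are shown because their transcripts are the largest gains of the stage; Smcp, the cysteine-rich protein of the mitochondrial capsule, is added as a tail gene that rose. Each run is the RefSeq window from 250 bases before to 50 bases after the start of the gene (GRCm38.p6), 5′ to 3′ on the gene's strand, which is the minus strand for all 5. Prm1 spans chr16:10796774-10797073, Prm2 chr16:10792056-10792355, Tnp2 chr16:10788606-10788905, Tnp1 chr1:73015850-73016149 and Smcp chr3:92589024-92589323. Capitals mark a match to TGANNTCA, a loose form of the cAMP response element (CRE) that reads the same on both strands.
Prm1: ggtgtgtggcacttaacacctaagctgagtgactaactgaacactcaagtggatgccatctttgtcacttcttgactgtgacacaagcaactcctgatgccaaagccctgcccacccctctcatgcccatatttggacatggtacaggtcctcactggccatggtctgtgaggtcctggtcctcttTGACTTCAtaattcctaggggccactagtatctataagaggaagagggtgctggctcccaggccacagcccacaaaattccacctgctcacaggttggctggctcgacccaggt
Prm2: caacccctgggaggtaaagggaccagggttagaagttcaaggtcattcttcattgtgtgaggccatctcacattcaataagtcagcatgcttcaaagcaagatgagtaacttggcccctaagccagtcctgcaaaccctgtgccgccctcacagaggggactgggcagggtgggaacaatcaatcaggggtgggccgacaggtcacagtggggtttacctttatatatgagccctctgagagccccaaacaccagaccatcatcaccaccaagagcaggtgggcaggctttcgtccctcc
Tnp1: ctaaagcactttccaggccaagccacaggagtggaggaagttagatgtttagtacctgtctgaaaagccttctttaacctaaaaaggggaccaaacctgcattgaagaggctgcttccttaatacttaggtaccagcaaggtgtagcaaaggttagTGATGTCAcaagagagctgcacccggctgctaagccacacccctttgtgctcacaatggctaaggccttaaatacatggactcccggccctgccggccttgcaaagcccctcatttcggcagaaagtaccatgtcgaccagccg
Tnp2: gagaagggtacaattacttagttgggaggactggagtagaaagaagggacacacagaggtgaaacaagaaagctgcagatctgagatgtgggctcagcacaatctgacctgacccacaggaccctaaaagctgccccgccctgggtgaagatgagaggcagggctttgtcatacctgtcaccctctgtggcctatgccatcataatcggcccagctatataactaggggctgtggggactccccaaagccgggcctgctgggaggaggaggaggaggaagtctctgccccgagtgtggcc
Smcp: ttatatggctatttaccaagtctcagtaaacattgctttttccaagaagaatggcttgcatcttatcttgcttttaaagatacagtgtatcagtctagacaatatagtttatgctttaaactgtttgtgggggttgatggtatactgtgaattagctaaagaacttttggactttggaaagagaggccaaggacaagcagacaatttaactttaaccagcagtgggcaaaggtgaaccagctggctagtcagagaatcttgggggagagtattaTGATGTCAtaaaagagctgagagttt

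The Prm1 window holds TGACTTCA, whose first base lies 64 bases before the start, and the Tnp1 window holds TGATGTCA, whose first base lies 94 bases before it. The Smcp window holds TGATGTCA at base 25 after the start, and the Prm2 and Tnp2 windows hold no match. None of the 5 windows holds the full CRE, TGACGTCA on either strand, its shorter core TGACG on either strand, or the TATA box letters TATAAA on the gene's strand.

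The loose pattern was searched for after these windows had been read, so its count is a description. Of tested genes with a RefSeq window, 24.2% of the 1432 that rose held TGANNTCA, against 12.9% of the 5165 that fell and 15.3% of all 8277. Among genes that rose by a log2 fold change of at least 3 the share was 27.5%. The same letters turned round, TCANNTGA, were in 9.29% of the genes that rose, 7.69% of those that fell and 8.23% of all. Genes that rose had windows of lower GC content, with a median of 55.2%, against 59.7% in those that fell. With the genes divided into 4 equal bins of GC content, the lowest bin had the pattern in 35.5% of the genes that rose and 21.6% of those that fell, and the highest bin in 8.40% and 6.82%. Median-centred calls gave 20.4% for genes that rose and 14.0% for those that fell.

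Over all windows the exact letters gave smaller or opposite differences. The full CRE was in 3.56% of the genes that rose, 3.89% of those that fell and 3.95% of all, and the core TGACG in 29.3%, 35.7% and 34.9%. The direction for the full CRE differed between the bins of GC content. From the lowest bin to the highest, 1.57%, 3.23%, 6.32% and 5.60% of the genes that rose held it (9, 11, 17 and 14 genes). Of those that fell, 2.53%, 4.22%, 4.72% and 3.89% did. The TATA box letters were in 7.12% of the genes that rose, 4.92% of those that fell and 5.44% of all. Crem, which encodes the CRE-binding activator of haploid germ cells and was added with its values known, itself fell, to 16, 14.8 and 17.6 RPKM in LES, against 43, 33.4 and 44.3 RPKM in RS, though median centring turned its direction (log2 fold change 0.22).

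**Figure D2:**
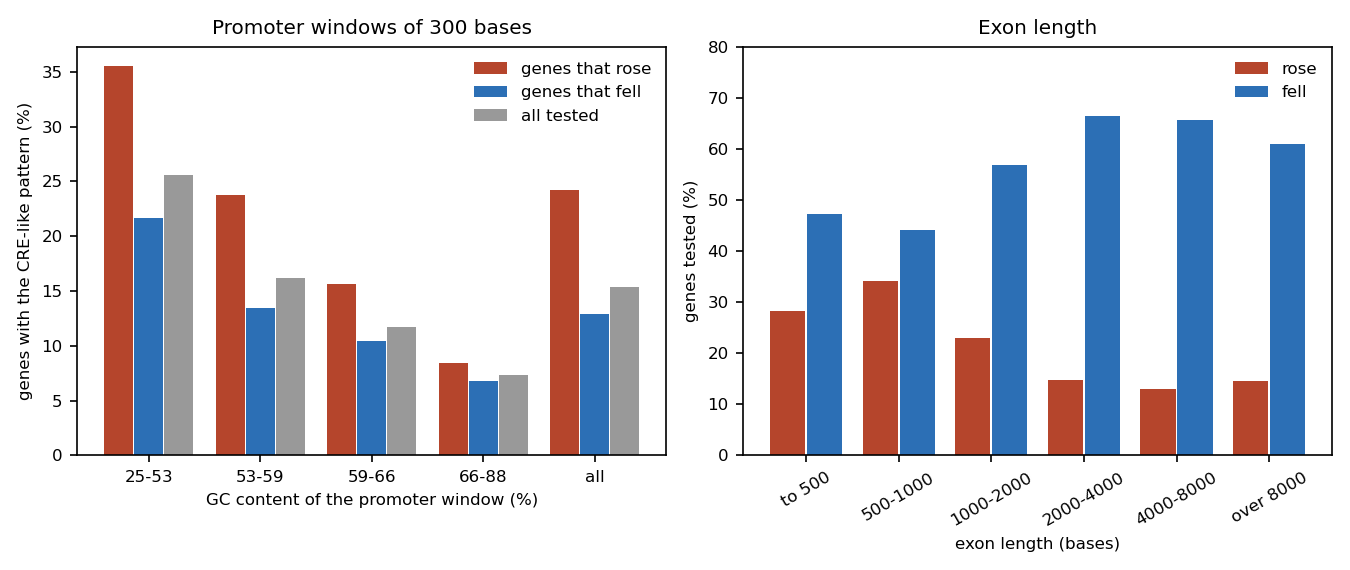
Left, the share of genes whose promoter window of 300 bases holds TGANNTCA, in 4 equal bins of GC content and over all windows, for genes that rose, genes that fell and all genes tested. Right, the share of tested genes that rose and fell by exon length in bases; the share that rose is 34.2% at 500 to 1000 bases and 13% at 4000 to 8000 bases.

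Histone variants split. Of the variants of testis and spermatids, 11 of 23 tested members rose and 9 fell, or 14 and 8 after median centring. The short H2A variant H2al2a had 1528, 1451 and 1482 RPKM in the LES libraries, against 14.5, 17.7 and 26.4 RPKM in the RS libraries, and the linker histone H1f7, needed for normal nuclear condensation, had 1785, 1931 and 1812 RPKM in the LES libraries, against 27.8, 34 and 42.7 RPKM in the RS libraries. H2ap rose to 882, 733 and 897 RPKM in LES, against 11.6, 11.3 and 18.9 RPKM in RS, and H2bl1 had a log2 fold change of 5.73 ± 0.18 (SE). H2ab1 went the other way, at 0.0568, 0.0296 and 0.126 RPKM in LES and 3.46, 3.46 and 3.79 RPKM in RS, a log2 fold change of -5.65 ± 0.43 (SE; limma's adjusted p = 2.73e-06). H2ab1 passed the filter only through RS. Several of these variants are short near-identical copies, so the split of reads among them is uncertain.

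The factors that carry out the exchange fell about as often as all genes tested. Of histone exchange and chromatin remodelling factors, 3 of 35 tested members rose and 23 fell, or 7 and 13 after median centring; the share that fell was 65.7% on the deposited scale, against 61.9% of all genes, and the list's median log2 fold change was -1.42, against -1.74. Hspa2, a chaperone of spermatocytes and spermatids that binds transition proteins, had 34.4, 24.9 and 53.3 RPKM in the LES libraries, against 668, 768 and 629 RPKM in the RS libraries. Nutm1, which drives histone hyperacetylation before the exchange, averaged 1.81 ± 0.16 RPKM in LES and 32 ± 6.64 RPKM in RS (SD, n = 3 each). The acetyl-histone reader Brd2 averaged 4.97 in LES and 81.5 in RS RPKM, and the deacetylase Hdac1 1.28 in LES and 19.6 in RS RPKM. The exception with the largest rise was Camk4, a kinase that acts on protamine 2, with 37.9, 39.6 and 34.8 RPKM in the LES libraries, against 1.46, 1.61 and 2.3 RPKM in the RS libraries.

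**Figure D3:**
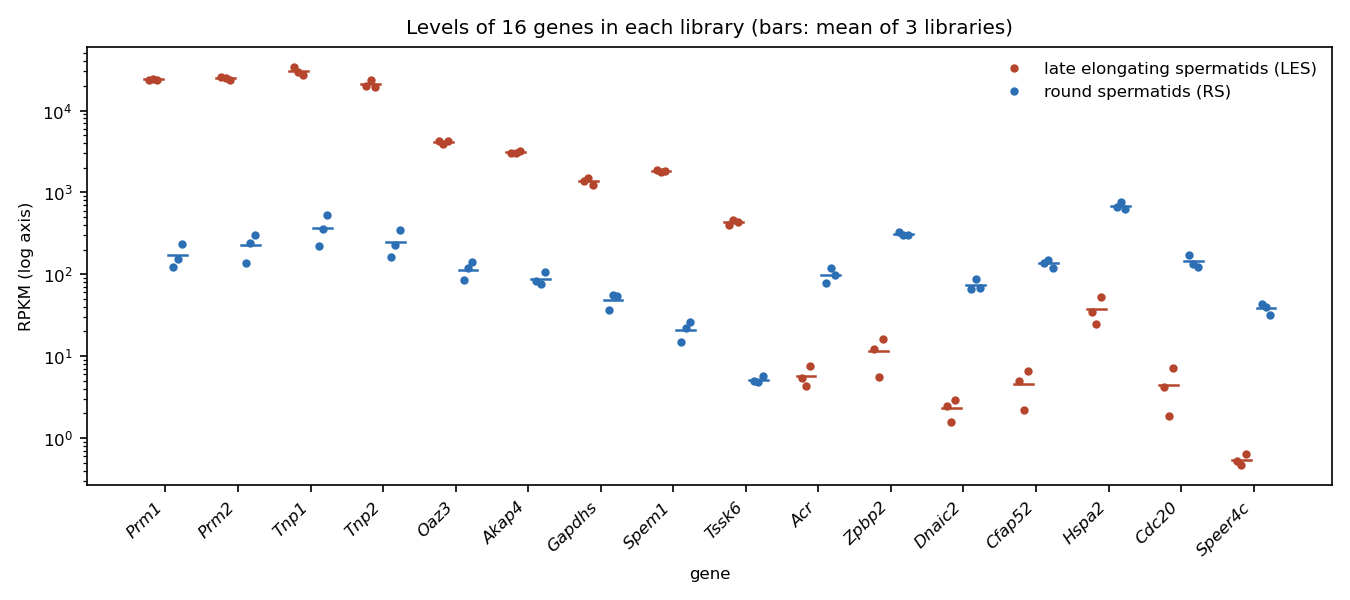
RPKM (log axis) of 16 genes in each library, with late elongating spermatids to the left of round spermatids for each gene; points are libraries and bars are means of 3. From Prm1 to Tssk6 all late elongating libraries are higher, and from Acr to Speer4c all are lower.

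More genes rose than fell in the list of perinuclear theca and actin-like proteins, which also holds Spem1 and Spem2. Of its 24 tested members 16 rose and 7 fell, or 16 and 5 after median centring, with a median log2 fold change of 2.79. Spem1, which is needed to shed the cytoplasm of the spermatid, had 1858, 1791 and 1845 RPKM in the LES libraries, against 14.7, 22.1 and 26.4 RPKM in the RS libraries. The related Spem2 averaged 729 ± 27.6 RPKM in LES and 9.83 ± 2.41 RPKM in RS, and the actin-like Actrt2 averaged 1892 ± 102 RPKM in LES and 39.5 ± 9.83 RPKM in RS (SD, n = 3 each). Actl11 rose by a log2 fold change of 4.33 ± 0.21. Dpy19l2, which holds the acrosome to the nuclear envelope, had the largest fall of the list, with 8.68, 6.36 and 12.1 RPKM in the LES libraries, against 123, 74 and 111 RPKM in the RS libraries.

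Of the genes that couple head to tail, 10 of 20 tested members rose and 6 fell, or 13 and 3 after median centring. Spatc1, which encodes the centrosomal protein speriolin, had 399.9, 418 and 382 RPKM in the LES libraries, against 3.83, 5.18 and 7.73 RPKM in the RS libraries. Pmfbp1 and Spata6, both needed to keep the head on the tail, averaged 542 ± 23.1 RPKM in LES and 54.1 ± 10.8 RPKM in RS, and 491 ± 24.7 RPKM in LES and 63.8 ± 6.78 RPKM in RS (SD, n = 3 each). Hook1, whose loss causes abnormal head shape, rose by 3.22 ± 0.24 on the log2 scale, while Hook2 had a log2 fold change of -4.44 ± 0.22.

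Acrosome genes fell about as often as all genes tested. Of acrosome contents and membrane genes, 6 of 33 tested members rose and 21 fell, or 10 and 13 after median centring, with a median log2 fold change of -1.99, against -1.74; the share that fell was 63.6% on the deposited scale, against 61.9% of all genes. The summed level of the list was 4386 to 4665 RPKM in LES and 3819.9 to 4216 RPKM in RS. Acr, the acrosomal protease acrosin, had 5.39, 4.31 and 7.56 RPKM in the LES libraries, against 78.5, 118 and 97.8 RPKM in the RS libraries. Zpbp2, a zona pellucida binding protein, had 12.4, 5.59 and 16.2 RPKM in the LES libraries, against 324, 303 and 299.7 RPKM in the RS libraries, and LES replicate 2 was the lowest. Prss21 averaged 3.68 in LES and 67.6 in RS RPKM and the hyaluronidase Hyal6 3.71 in LES and 53.6 in RS RPKM. Prss55, a serine protease of the acrosome list, rose to 233, 238 and 183 RPKM in LES, against 7.1, 7.67 and 11.6 RPKM in RS.

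The machinery that builds the acrosome depended on the scale. Of acrosome biogenesis and Golgi trafficking genes, 2 of 24 tested members rose and 13 fell, or 10 and 8 after median centring. Sec23ip, Ubqln1 and the Golgi GTPase Rab6a had log2 fold changes of -4.00, -3.65 and -3.47, and Pick1, which is needed for fusion of proacrosomal vesicles, -2.99. Fam71f2 had 1391, 1361 and 1378 RPKM in the LES libraries, against 14.5, 22.8 and 26.3 RPKM in the RS libraries. Of genes for sperm-egg fusion, 2 of 12 tested members rose and 7 fell, or 4 and 1 after median centring, and quantile normalization gave 3 and 2. Dcst1 and Dcst2 averaged 2.25 in LES and 11.7 in RS RPKM and 3.99 in LES and 21.8 in RS RPKM, whereas Llcfc1, also needed for fusion, averaged 529.7 in LES and 108 in RS RPKM. Izumo1, the sperm ligand of the egg receptor and added with its values known, had 5.04, 4.77 and 5.2 RPKM in the LES libraries, against 13.7, 19.2 and 18 RPKM in the RS libraries.

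In the tail, the lists of accessory structures went in both directions, while most genes of the axoneme fell. Of fibrous sheath genes, 13 of 23 tested members rose and 9 fell, or 14 and 7 after median centring, and quantile normalization gave 10 and 9. Akap4, the main scaffold of the sheath, had 3043, 3022 and 3242 RPKM in the LES libraries, against 82.9, 75.6 and 105 RPKM in the RS libraries. Gapdhs, the glycolytic enzyme bound to it, had 1383, 1485 and 1245 RPKM in the LES libraries, against 36.2, 55.6 and 54.5 RPKM in the RS libraries. All LES libraries were above 1000 RPKM for both. Akap1, which anchors protein kinase A at mitochondria, rose by a log2 fold change of 5.23 ± 0.15, and the calmodulin-like Calml3 by 5.63 ± 0.21 at low level. Calml3 was under 1 RPKM in all RS libraries and passed the filter only through LES. Cfap20, an axonemal protein in the same list, had 1.35, 0.608 and 1.74 RPKM in the LES libraries, against 36.4, 34.7 and 31.4 RPKM in the RS libraries.

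Of outer dense fibre genes, 5 of 15 tested members rose and 7 fell, or 8 and 6 after median centring. Odf1, the main fibre protein and added with its values known, had 2324, 2345 and 2592 RPKM in the LES libraries, against 93.5, 139 and 140.2 RPKM in the RS libraries. Odf3b had the largest rise of the list, with 58.2, 67.8 and 54.6 RPKM in the LES libraries, against 0.524, 0.775 and 1.53 RPKM in the RS libraries. Of the RS libraries only replicate 3 reached 1 RPKM, so Odf3b passed the filter only through LES. The 4 members named for the largest falls were Ccdc113, Ccdc42, Cfap58 and Odf3l1, with log2 fold changes of -4.67, -4.43, -3.51 and -3.50; Ccdc113 averaged 11.6 in LES and 281 in RS RPKM. Of mitochondrial sheath genes, 9 of 27 tested members rose and 15 fell, or 10 and 4 after median centring. Vdac2 and Vdac3, porins of the outer mitochondrial membrane, averaged 7.52 in LES and 158 in RS RPKM and 14.8 in LES and 148 in RS RPKM, and Gk2, a glycerol kinase of the sheath, had 48.7, 32.1 and 63.8 RPKM in the LES libraries, against 779, 700.2 and 688 RPKM in the RS libraries. Spata18 rose to 971, 949 and 931 RPKM in LES, against 18.7, 27.7 and 29.8 RPKM in RS. Smcp and Gpx4, capsule proteins added with their values known, averaged 585 in LES and 24.4 in RS RPKM and 579 in LES and 197 in RS RPKM.

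Genes of the axoneme, whose assembly starts in round spermatids, were mostly lower in LES. Of axonemal dyneins and their assembly factors, 0 of 29 tested members rose and 26 fell, or 3 and 20 after median centring, with a median log2 fold change of -3.10; the share that fell was 89.7% on the deposited scale, against 61.9% of all genes. The intermediate chain Dnaic2 had 2.47, 1.56 and 2.93 RPKM in the LES libraries, against 66.6, 87.5 and 67.9 RPKM in the RS libraries, and the assembly factor Spag1 averaged 1.16 ± 0.441 RPKM in LES and 30.3 ± 0.624 RPKM in RS (SD, n = 3 each). The light chain Dnal4 and the assembly factor Dnaaf5 had log2 fold changes of -4.75 and -4.43. Of central pair, radial spoke and doublet proteins, 1 of 46 tested members rose and 40 fell, or 5 and 29 after median centring. Cfap52 and Cfap45, proteins inside the doublet microtubules, averaged 4.59 in LES and 137 in RS RPKM and 5.92 in LES and 156 in RS RPKM, and the tektin Tekt4 10.04 in LES and 278 in RS RPKM. Tekt5 was the only member of that list to rise on the deposited scale, with 51.7, 54.1 and 40.8 RPKM in the LES libraries, against 17.9, 21 and 20.8 RPKM in the RS libraries.

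Of manchette and intraflagellar transport genes, 9 of 56 tested members rose and 37 fell, or 15 and 23 after median centring. Ttc30b, Ift43 and Ttc21b, subunits of the transport trains, had log2 fold changes of -5.07, -4.73 and -4.15, and Katnal2, a katanin of the manchette, -4.63. Lrrc8b had 285, 338 and 275 RPKM in the LES libraries, against 14.2, 15.9 and 20.8 RPKM in the RS libraries. Tubulins went in both directions: 9 of 14 tested members rose and 4 fell, or 10 and 3 after median centring. The summed level of the list was lower in LES, at 1161 to 1206 RPKM, against 2559 to 3064 RPKM in RS. Tuba1c had 82.3, 85.9 and 81.8 RPKM in the LES libraries, against 2.55, 3.39 and 3.74 RPKM in the RS libraries, and Tuba4a and Tuba1a rose by 4.51 and 3.89 on the log2 scale. Tuba3b, a testis tubulin, had 55.5, 35.7 and 83 RPKM in the LES libraries, against 1041, 1162 and 983 RPKM in the RS libraries. Tuba1a and Tubb3, both counted as rises, were under 1 RPKM in all RS libraries. They passed the filter only through LES, so that they rose says nothing of its own. Tubulin genes share long stretches of sequence, so single values are uncertain.

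Motility genes fell in most cases on the deposited scale. Of the CatSper calcium channel and motility signalling, 4 of 28 tested members rose and 22 fell, or 6 and 11 after median centring; the share that fell was 78.6%, against 61.9% of all genes, and after median centring it was near the 34.4% of all genes. The summed level of the list was 1476 to 1588 RPKM in LES and 1652 to 1709 RPKM in RS. Prkaca, the catalytic subunit of protein kinase A, had 2.92, 2.02 and 4.33 RPKM in the LES libraries, against 43.9, 61.4 and 48.8 RPKM in the RS libraries, while Prkar2a, its regulatory subunit bound by Akap4, had 147, 153 and 143 RPKM in the LES libraries, against 1.22, 1.66 and 2.14 RPKM in the RS libraries. These 2 genes of the same enzyme thus moved in opposite directions, by log2 fold changes of -4.11 ± 0.27 and 6.49 ± 0.20 (SE). The ion transporters Slc9b1 and Slc26a8 averaged 4.36 in LES and 75.6 in RS RPKM and 3.02 in LES and 50.1 in RS RPKM, and the calcium pump Atp2b4 0.616 in LES and 8.61 in RS RPKM. Catsper1, a pore subunit added with its values known, had 3.88, 3.72 and 5.2 RPKM in the LES libraries, against 15, 28 and 23.8 RPKM in the RS libraries.

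Of testis-specific serine kinases and other spermatid kinases, 7 of 12 tested members rose and 4 fell, or 8 and 3 after median centring. Tssk6, needed for chromatin condensation in mice, had 403, 460.4 and 439 RPKM in the LES libraries, against 4.92, 4.81 and 5.65 RPKM in the RS libraries. Tsks, a substrate of these kinases, averaged 751 ± 72.8 RPKM in LES and 46.5 ± 5.5 RPKM in RS, and the casein kinase Csnk1g2 397 ± 15.2 RPKM in LES and 21 ± 3.48 RPKM in RS (SD, n = 3 each). Sik1 rose by 4.20 ± 0.20 on the log2 scale, and Hipk4, a kinase needed for head shaping, had a log2 fold change of -3.68 ± 0.14. Sik1 was under 1 RPKM in all RS libraries and passed the filter only through LES.

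Energy genes also split. Of the glycolysis isoforms of sperm, 10 of 26 tested members rose and 13 fell, or 13 and 7 after median centring, and quantile normalization gave 11 and 10. Gpi1 had the largest rise, with 225, 232 and 212 RPKM in the LES libraries, against 4.45, 6.26 and 7.24 RPKM in the RS libraries. The glucose transporters Slc2a3 and Slc2a8 averaged 10.8 in LES and 184 in RS RPKM and 1.1 in LES and 31 in RS RPKM, and the phosphofructokinases Pfkm and Pfkp 4.31 in LES and 83.1 in RS RPKM and 1.37 in LES and 23 in RS RPKM. Pgk2, the phosphoglycerate kinase of haploid cells and added with its values known, averaged 1691 in LES and 351 in RS RPKM. Of nuclear-encoded respiratory chain genes, 2 of 75 tested members rose and 57 fell, or 14 and 32 after median centring. The testis cytochrome c gene Cyct had 4.11, 1.57 and 7.43 RPKM in the LES libraries, against 85.2, 77.2 and 69.2 RPKM in the RS libraries, and Cox7b2, Ndufs1 and Ndufb3 had log2 fold changes of -4.38, -4.15 and -4.15. Ndufa13, a subunit of complex I, was an exception, with 242, 248 and 225 RPKM in the LES libraries, against 26.3, 33.8 and 32.7 RPKM in the RS libraries.

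**Figure D4:**
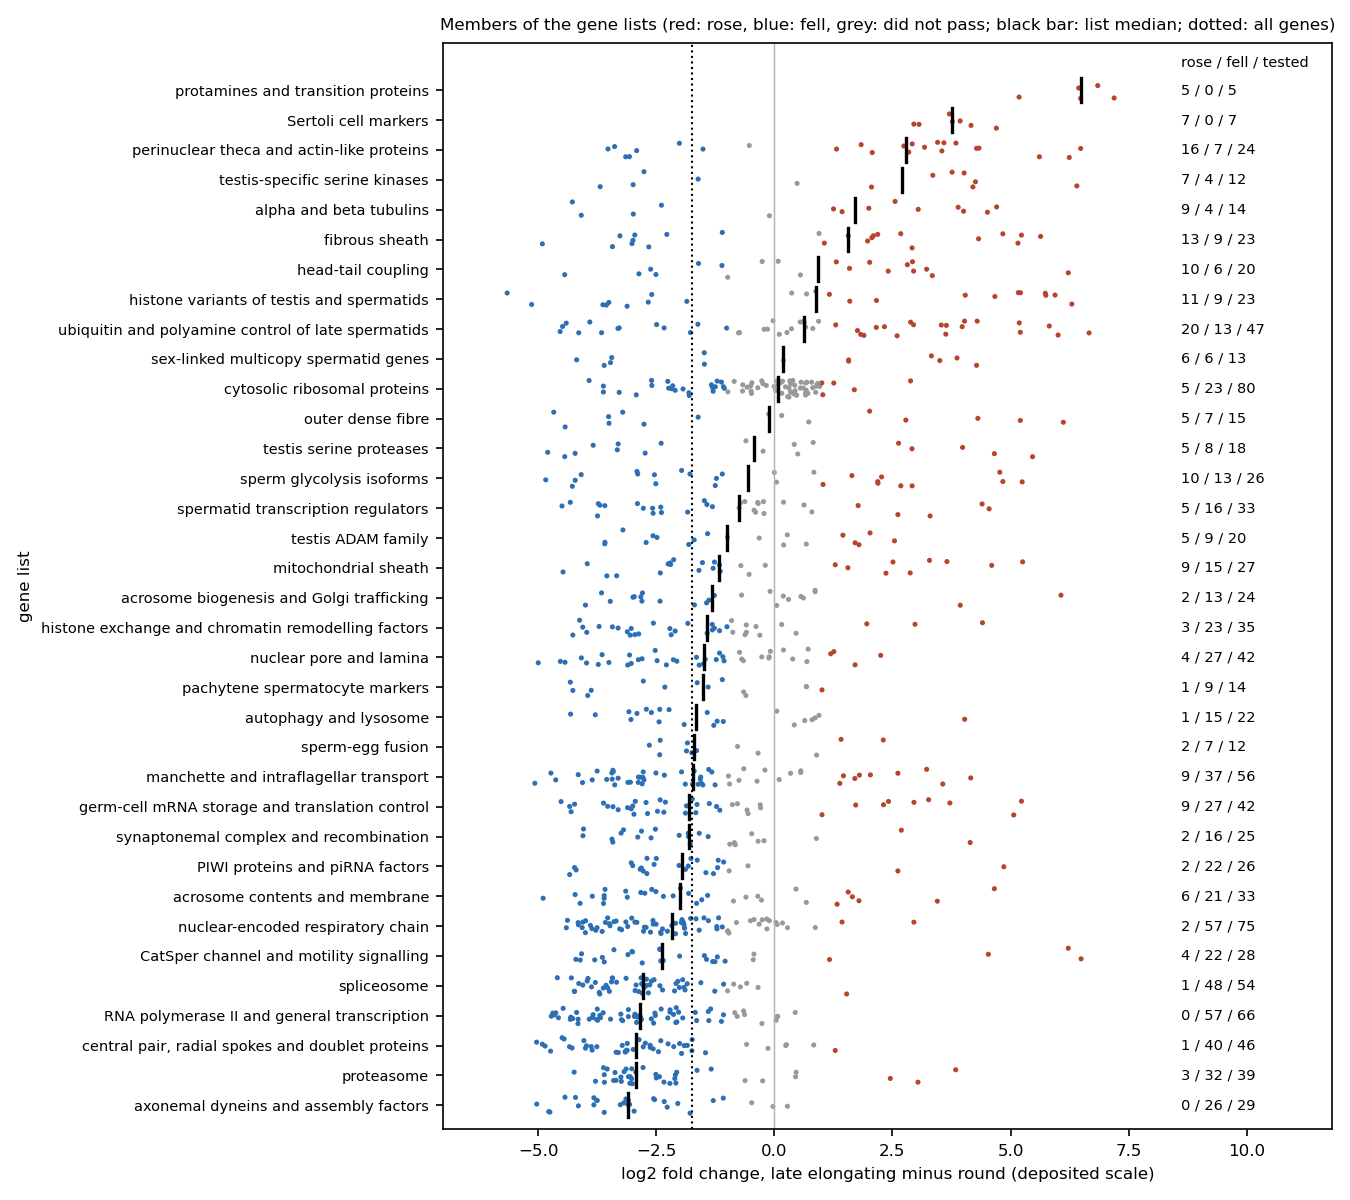
Log2 fold changes (late elongating minus round, deposited scale) of the tested members of each list with at least 5 tested members, ordered by the list median. Red points rose, blue points fell, grey points did not pass, black bars are list medians and the dotted line is the median of all genes, -1.74; counts at the right are members that rose, fell and were tested.

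Protein turnover showed both directions as well. Of ubiquitin and polyamine genes of late spermatids, 20 of 47 tested members rose and 13 fell, or 32 and 8 after median centring. Ubqlnl, a ubiquilin of the testis, had 541, 549.9 and 572 RPKM in the LES libraries, against 3.94, 5.19 and 7.99 RPKM in the RS libraries, the ubiquitin ligase Rnf133 had 807, 756 and 779 RPKM in the LES libraries, against 10.2, 10.8 and 16.3 RPKM in the RS libraries, and Asb17 averaged 329 ± 9.78 RPKM in LES and 6.11 ± 2.42 RPKM in RS (SD, n = 3 each). Oaz3, given above, is in this list, with a log2 fold change of 5.21 ± 0.18 (SE; limma's adjusted p = 7.93e-08). Uchl3, a deubiquitinase, fell to 0.929, 0.574 and 1.69 RPKM in LES, against 26.9, 18.9 and 22.8 RPKM in RS. Of proteasome subunits and regulators, 3 of 39 tested members rose and 32 fell, or 6 and 21 after median centring: Psmd3, Psma5, Psmd12 and Psmb2 had log2 fold changes of -4.24, -3.78, -3.61 and -3.60. Psmf1, an inhibitor of the proteasome, rose to 209.8, 219 and 184 RPKM in LES, against 11.4, 15.5 and 16.3 RPKM in RS. The summed level of the proteasome list was 1588 to 1734 RPKM in LES and 1619 to 1706 RPKM in RS. Of autophagy and lysosome genes, 1 of 22 tested members rose and 15 fell, or 7 and 7 after median centring. Gabarapl1 and Gabarapl2, which tag autophagosome membranes, differed in direction, with means of 295 in LES and 18.1 in RS RPKM and 0.584 in LES and 10.1 in RS RPKM.

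Genes for making RNA were among the lowest lists. Of RNA polymerase II subunits and general transcription factors, 0 of 66 tested members rose and 57 fell, or 5 and 38 after median centring, with a median log2 fold change of -2.85. Tbp, the TATA-binding protein, had 0.595, 0.375 and 0.962 RPKM in the LES libraries, against 16.3, 15 and 15.8 RPKM in the RS libraries, and Cdk7, the kinase of TFIIH, had 0.368, 0.169 and 0.657 RPKM in the LES libraries, against 12.4, 8.3 and 8.0 RPKM in the RS libraries. Tbp and Cdk7 passed the filter only through RS. Taf12 and Med27 had log2 fold changes of -4.66 and -4.62. Of spliceosome genes, 1 of 54 tested members rose and 48 fell, or 2 and 35 after median centring. Snrpb2, Sf3a3, Snrnp27 and Snrpc averaged 0.839 in LES and 16.4 in RS, 1.56 in LES and 27 in RS, 1.14 in LES and 19.4 in RS, and 0.74 in LES and 13.6 in RS RPKM, and the member that rose was Snrpd2, with 183, 156 and 142 RPKM in the LES libraries, against 58.3, 52.5 and 54.8 RPKM in the RS libraries.

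Of nuclear pore and lamina genes, 4 of 42 tested members rose and 27 fell, or 12 and 13 after median centring. The pore subunits Nup37, Nup133 and Nup188 had log2 fold changes of -5.00, -4.53 and -4.43, the export factor Rae1 -4.08, and Banf2 2.25. Of transcription regulators of spermatids, 5 of 33 tested members rose and 16 fell, or 14 and 10 after median centring. Spz1, a helix-loop-helix factor of the testis, had 3676, 3394 and 3804 RPKM in the LES libraries, against 133, 160.0 and 175 RPKM in the RS libraries, and was among the 8 genes with the largest gain in mean RPKM. Foxj1, the master regulator of motile cilia, had 2.56, 2.76 and 3.71 RPKM in the LES libraries, against 70.5, 71.7 and 59.8 RPKM in the RS libraries. Tbpl1 and Gtf2a1l, germ-cell forms of general factors, averaged 8.1 in LES and 154 in RS RPKM and 21.6 in LES and 282 in RS RPKM, and Ovol2 4.49 in LES and 58.8 in RS RPKM.

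The median ribosomal protein gene was level between the stages on the deposited scale. Of cytosolic ribosomal protein genes, 5 of 80 tested members rose and 23 fell, or 52 and 7 after median centring, and quantile normalization gave 23 and 10: the list's median log2 fold change was 0.08, against -1.74 for all genes. The largest falls were in Rps4l, Rpl22l1, Rps27l and Rps27a, with log2 fold changes of -3.92, -3.62, -3.62 and -3.28; 3 of these are paralogues of a main gene. Ribosomal protein genes have many processed copies, so single values are uncertain. Of genes for mRNA storage and translation control in germ cells, 9 of 42 tested members rose and 27 fell, or 11 and 15 after median centring. Tdrd6 and Tdrd7, of the chromatoid body in which round spermatids keep RNA, had 13, 9.11 and 17.9 RPKM in the LES libraries, against 218, 313 and 252 RPKM in the RS libraries (Tdrd6) and 9.71, 6.97 and 12.5 RPKM in the LES libraries, against 172, 187 and 173 RPKM in the RS libraries (Tdrd7). Fxr2 and Pabpc6 had log2 fold changes of -4.51 and -4.30. Ybx2, the abundant mRNA-masking protein, averaged 717 ± 60.6 RPKM in LES and 360.0 ± 72.3 RPKM in RS (SD, n = 3 each), a rise on the deposited scale that quantile normalization turned round (-0.25 on the log2 scale).

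Genes of meiotic pairing and recombination fell about as often as all genes tested, and PIWI and piRNA factors fell more often. Of synaptonemal complex and recombination genes, 2 of 25 tested members rose and 16 fell, or 6 and 9 after median centring, and the list's median log2 fold change was -1.82, against -1.74. Spo11, which makes meiotic breaks, had 1.08, 0.671 and 1.79 RPKM in the LES libraries, against 19.9, 16.4 and 18.2 RPKM in the RS libraries, and the cohesins Rec8 and Stag3 averaged 2.48 in LES and 26.9 in RS RPKM and 10.7 in LES and 113 in RS RPKM. Syce2 was an exception, with 140.2, 137 and 145 RPKM in the LES libraries, against 9.38, 7.2 and 7.46 RPKM in the RS libraries. Of PIWI and piRNA factors, 2 of 26 tested members rose and 22 fell, or 2 and 11 after median centring. The share that fell was 84.6% on the deposited scale, against 61.9% of all genes. Gtsf2 averaged 9.26 in LES and 166 in RS RPKM and Pld6, which cleaves piRNA precursors at mitochondria, 1.78 in LES and 13.8 in RS RPKM, whereas Tdrkh, a partner of PIWI proteins, had 303, 277 and 286 RPKM in the LES libraries, against 7.98, 10.6 and 11.7 RPKM in the RS libraries. Of pachytene spermatocyte markers, 1 of 14 tested members rose and 9 fell, or 3 and 5 after median centring; Ccna1, the cyclin A of meiosis, had 19, 15.5 and 18.6 RPKM in the LES libraries, against 316, 255 and 251 RPKM in the RS libraries, and Spag6l 9.75, 7.33 and 12.1 RPKM in the LES libraries, against 146, 137 and 136 RPKM in the RS libraries.

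Secreted and surface families were spread over both directions. Of testis serine proteases, 5 of 18 tested members rose and 8 fell, or 9 and 7 after median centring; Prss42, Prss43 and Prss46 had log2 fold changes of -4.80, -3.83 and -4.43, and Prss58 had 333, 318 and 262 RPKM in the LES libraries, against 5.73, 5.93 and 9.46 RPKM in the RS libraries. Of the testis ADAM family, 5 of 20 tested members rose and 9 fell, or 9 and 5 after median centring, and quantile normalization gave 7 and 7; Adam2, the shared subunit of the fertilins, had 22.2, 15 and 29.5 RPKM in the LES libraries, against 277, 249 and 246 RPKM in the RS libraries, and Adam4 21.4, 20.05 and 19.9 RPKM in the LES libraries, against 4.08, 2.69 and 3.91 RPKM in the RS libraries. Of multicopy spermatid genes, mostly sex-linked, 6 of 13 tested members rose and 6 fell, or 7 and 4 after median centring; Cypt3, Cypt1 and Actrt1 rose by 3.87, 3.32 and 4.28 on the log2 scale, and reads of their near-identical copies cannot be assigned with certainty.

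Several of the largest rises and falls among well-expressed protein-coding genes were in genes outside these groups. Car2, a carbonic anhydrase, had 289, 263 and 283 RPKM in the LES libraries, against 1.4, 2.16 and 3.2 RPKM in the RS libraries. Glul, glutamine synthetase, had 316, 324 and 269 RPKM in the LES libraries, against 2.22, 3.03 and 3.7 RPKM in the RS libraries, and Bpifa3 had 415, 367 and 383 RPKM in the LES libraries, against 2.65, 3.79 and 5.24 RPKM in the RS libraries. The kallikreins Klk1b8 and Klk1b26, close copies of each other, rose by 7.03 and 6.67 on the log2 scale. Il2rg, the common chain of interleukin receptors, had 64.4, 56 and 66.4 RPKM in the LES libraries, against 0.354, 0.622 and 0.875 RPKM in the RS libraries, and its LES libraries lay close together. Il2rg passed the filter only through LES. By gain in mean RPKM, Dbil5, an acyl-CoA binding protein of haploid cells, had 4184, 3765 and 4003 RPKM in the LES libraries, against 269, 354 and 329.5 RPKM in the RS libraries, and 4933411K16Rik had 3674, 3499 and 3549 RPKM in the LES libraries, against 44, 62.5 and 77.8 RPKM in the RS libraries.

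The largest falls included Plk1 and Cdc20. Plk1, the mitotic polo kinase, had 2.37, 1.59 and 2.89 RPKM in the LES libraries, against 86.6, 99 and 73.1 RPKM in the RS libraries, and Cdc20, the activator of the anaphase-promoting complex, had 4.25, 1.83 and 7.24 RPKM in the LES libraries, against 174, 134 and 123 RPKM in the RS libraries. Kif18b, a mitotic kinesin, averaged 1.2 ± 0.33 RPKM in LES and 43.2 ± 4.82 RPKM in RS (SD, n = 3 each). Speer4c, of a multicopy spermatogenesis family, had the largest fall, with 0.522, 0.465 and 0.633 RPKM in the LES libraries, against 42.8, 40.2 and 32.2 RPKM in the RS libraries. Its log2 fold change was -6.13 ± 0.19 (SE, limma's adjusted p = 6.53e-08). Speer4c passed the filter only through RS. Rfx8, Pxt1, Cog6, Nxt1, Rhcg and Zfp646 had log2 fold changes of -5.46, -5.44, -5.23, -5.19, -5.18 and -5.17; Nxt1, an mRNA export factor, averaged 6.3 in LES and 203 in RS RPKM.

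Markers of other testis cells also differed. Summed over 20 Sertoli cell markers, the level was 45.2, 23.8 and 85.2 RPKM in the LES libraries, against 5.29, 4.24 and 3.71 RPKM in the RS libraries, with none of the markers at 0 in all 6 libraries (the markers include Sox9, Amh and Fshr). Sox9 had 0.0741, 0.0572 and 0.0935 RPKM in the LES libraries, Amh had 0.0474, 0.0246 and 0.0105 RPKM and Fshr had 0.0293, 0.0218 and 0.0149 RPKM, all near 0. These 3 of the 20 markers were chosen with their values known, while the sum over all 20 was higher in each LES library than in any RS library. The 7 tested members passed the filter only through LES, so that they all rose says nothing of its own; Tsx had 2.53, 1.42 and 5.06 RPKM in the LES libraries, against 0.137, 0.0447 and 0.121 RPKM in the RS libraries, and Defb19 11.4, 6.47 and 23.4 RPKM in the LES libraries, against 1.65, 0.663 and 0.689 RPKM in the RS libraries. The 17 Leydig, myoid and macrophage markers summed to 12.1, 27.7 and 115 RPKM in LES, against 7.15, 8.24 and 7.76 RPKM in RS. Only 3 of them were tested: 1 rose, 1 fell and 1 did not pass, with a median log2 fold change of -1.60. Cd74, the invariant chain of antigen-presenting cells and the largest fold change of the protein-coding genes named, had 3.29, 17.5 and 79.5 RPKM in the LES libraries, against 0, 0 and 0.00449 RPKM in the RS libraries, with a log2 fold change of 10.52 ± 0.96 (SE), or 9.39 without LES replicate 3. Cd74 also passed the filter only through LES. The part of other cells in the rises above was not tested.

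**Figure D5:**
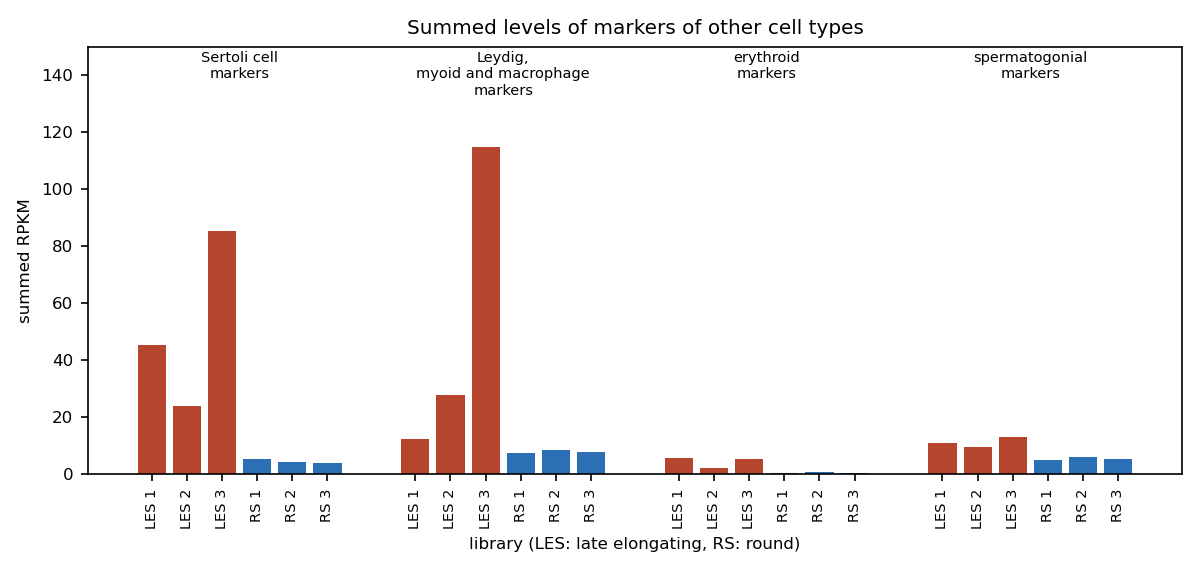
Summed RPKM of Sertoli, Leydig with myoid and macrophage, erythroid and spermatogonial markers in each library, late elongating (red) to the left of round (blue). LES replicate 3 is the highest library for the Sertoli sum, at 85.2 RPKM, and for the Leydig, myoid and macrophage sum, at 115 RPKM.

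The libraries of a stage differed in a patterned way. Of the 6475 genes that fell, LES replicate 3 was the highest LES library for 80.8% and LES replicate 2 the lowest for 76.9%. Of the 1809 genes that rose, RS replicate 3 was the highest RS library for 65.1% and RS replicate 1 the lowest for 60.9%. Spearman correlations over the genes were 0.973 to 0.989 among the LES libraries, 0.976 to 0.987 among the RS libraries and 0.460 to 0.584 between the stages, as a description over genes, which are not replicates. In the EES libraries Prm1 had 28436, 9452 and 23462 RPKM, and EES replicate 2 was the lowest.

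Short transcripts rose more often. By exon length, 28.2% of genes of up to 500 bases and 34.2% of genes of 500 to 1000 bases rose, against 14.7% at 2000 to 4000 bases and 13% at 4000 to 8000 bases; with median centring these shares were 44.3%, 49.9%, 28.1% and 28.2%. On the X chromosome 95 of 298 tested genes rose (31.9%, or 46.6% with median centring, against 32.1% of all genes), and the autosomes ranged from 12.0% (chromosome 5) to 20.8% (chromosome 3). Of 900 tested lncRNA genes, 30.9% rose, against 15.9% of 9252 protein-coding genes. Some genes were under 1 RPKM in all RS libraries and passed the filter only through LES: 568 of all 10466, 29 of 305 genes of up to 500 bases, 63 of 729 genes of 500 to 1000 bases, 31 on the X chromosome and 92 of the lncRNA genes.

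The transcripts assembled de novo gave a further view. Of 16453 tested de novo genes, 8703 fell (52.9%) and 4396 rose (26.7%), 79.6% in all, and among 7667 that matched 1 reference gene each, 96.5% had the same call and 27 the opposite one. Loci lacking a reference gene on the same strand numbered 9686, of which 3925 were tested, 1444 fell and 1768 rose. Of these, 2105 overlapped no reference exon on either strand, and 1211 of them rose (57.5%) and 609 fell (28.9%). Among the 2105, 1073 were under 1 RPKM in all 3 RS libraries and passed the filter only through LES. Another 543 were under 1 RPKM in all 3 LES libraries and passed only through RS. Reads of a locus and an antisense partner cannot be told apart where the counting did not use strand, which the sources used here do not give.

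Single loci reached moderate levels. MSTRG.20053, a spliced locus of 4 exons at chr5:144919011-144933982 on the plus strand, overlapped no reference exon and had 8.79, 7.03 and 10 RPKM in the LES libraries, against 0.0217, 0.0085 and 0.0531 RPKM in the RS libraries. MSTRG.10333, a single exon of 492 bases at chr16:92432019-92432510 on the plus strand, had 19, 16.3 and 18 RPKM in the LES libraries, against 0.0377, 0.118 and 0.184 RPKM in the RS libraries. MSTRG.15158, at chr2:179993355-180002198 on the minus strand and opposite to exons of Gm14299, had 16, 11.9 and 15.6 RPKM in the LES libraries, against 0, 0.096 and 0.178 RPKM in the RS libraries. All 3 were near 0 in RS and passed the filter only through LES.

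In the other direction, MSTRG.10671, a single exon at chr17:24468968-24469295 on the plus strand, had 0.0603, 0.157 and 0.0803 RPKM in the LES libraries, against 15.6, 14.7 and 18.2 RPKM in the RS libraries. MSTRG.9868, at chr16:31377783-31380154 on the plus strand and opposite to 1700007E05Rik, averaged 0.138 ± 0.0997 RPKM in LES and 8.9 ± 0.596 RPKM in RS (SD, n = 3 each). MSTRG.16095, at chr3:105984573-105984792 on the minus strand and opposite to Ovgp1 and Gm42890, had 0.0899, 0.374 and 0.24 RPKM in the LES libraries, against 5.6, 30.7 and 19.8 RPKM in the RS libraries, and its RS libraries were widely spread. These 3 loci were under 1 RPKM in all LES libraries and passed the filter only through RS. Coordinates are those of the deposited annotation, for which the builds GRCm38 and mm10 are named.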

How the data were processed

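RNA was extracted with a DirectZol kit and made into TruSeq libraries, per the labels' protocols; the sources used here do not give strandedness. The submitters' processing notes name Trim Galore and STAR and the builds GRCm38 and mm10, without versions, settings or a counting program. The values the authors deposited, for reference and for de novo genes, are log2 of 100 times RPKM plus 1, a pseudocount of 0.01 RPKM, so a log2 fold change understates the change of genes near that level. Multiplied by exon length, the deposited values fell on whole reads within 0.01 read, which gave each library's total. Reads in de novo genes came to 105.1% to 106.3% of that total in LES, against 86.0% to 92.0% in RS. The cause was not tested. The deposited annotation holds other values, exon positions, and was assembled with StringTie 1.3.4d, per the file headers.

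Levels are RPKM with the pseudocount removed. Genes with at least 1 RPKM in at least 3 of the 6 libraries were fitted with limma 3.58.1 (R 4.3.3), eBayes with a mean-variance trend, and called with a Benjamini-Hochberg adjusted p under 0.05 and a log2 fold change of at least 1 in size. Library totals set the precision of low values, and no interval is given for them.

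The members and the gene lists (1273 entries, 1235 found in the table) were chosen with earlier results of these data known, and the lists get counts and medians, not a test. Genes named are the markers, for each list up to 4 called members with the largest fold change in the direction of most plus 1 in the other, the 10 largest rises and falls among protein-coding genes of at least 32 RPKM whose libraries did not overlap, the 8 largest gains in RPKM and 3 loci in each direction; those added later are marked in the text. Sox9, Amh, Fshr and Defb19 were likewise chosen with their values known. Symbols and promoters came from RefSeq (GRCm38.p6), where 24570 of 24594 gene IDs were found; de novo loci were compared with GENCODE M21. The alternatives were median centring, quantile normalization, no filter, a pseudocount of 1 RPKM, a log2 fold change of at least 2, all 15 libraries of the 5 stages, the replicate number as a block, and each library left out.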

Additional observations from a re-analysis of the deposited data

How the results depend on the processing

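How many genes rose or fell depended on the scale of the libraries. Median centring gave 3360 rises and 3604 falls among reference genes and quantile normalization 2917 and 3942, against 1809 and 6475 on the deposited scale; without the filter on low values there were 3635 rises and 9007 falls among 24594 reference genes, and 6491 and 13213 among de novo genes. Leaving out each library in turn gave 1783 to 1834 rises and 6400 to 6576 falls among reference genes, and 4334 to 4445 rises and 8594 to 8788 falls among de novo genes. A pseudocount of 1 RPKM gave 1630 rises and 5615 falls, all 15 libraries 1792 and 6368, and a log2 fold change of at least 2 left 1292 and 4751. The labels number the libraries of both stages alike. Deviations of same-numbered libraries from their stage means had correlations of -0.009, 0.101 and -0.221 over genes. Those of differently numbered libraries ran from -0.289 to 0.273. With 3 libraries a stage, such correlations cannot decide whether same-numbered libraries share an origin. With the replicate block there were 1814 rises and 6485 falls, and no call of a named gene changed.

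Of 180 named reference genes under 12 alternatives, 2141 of 2160 values kept direction and call. Reversed were Ybx2 under quantile normalization (log2 fold change -0.25), Crem under median centring (0.22) and Ldhc under median centring (0.43). Under median centring Tssk1 passed, and Dcst1, Dcst2, Acrv1, Catsper1 and Izumo1 kept their direction without passing. Dcst1, Crem, Odf2, Pgk2, Gpx4 and Izumo1 did so under quantile normalization, and Ldhc with all 15 libraries. Ybx2, at 1.01 with all libraries, lay between 0.92 and 0.95 without RS replicate 1, RS replicate 3 or LES replicate 2 and then missed the fold limit. The cause of these changes was not tested. With 97.2 M reads in the shallowest library, 1 RPKM is 97.2 reads for each kilobase, so counting error is small at the limit of the filter.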

Other observations

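The single library of round spermatids from juvenile mice of 23 dpp, which the labels' titles set apart and which was sorted with Hoechst alone, had 9.75 RPKM of Prm1, against 124, 152 and 234 RPKM in the 3 adult RS libraries. Its protamine and transition protein genes held 0.0117% of the reads in annotated genes, below each adult RS library. The single library of elongating spermatids with a Prm1-EGFP reporter had 4380 RPKM of Prm1, between the 3 LES and the 3 RS libraries, and these genes held 4.72% of its reads; its most abundant gene by reads was Odf2, a fibre protein of the tail. Pachytene and diplotene spermatocytes had 13.6, 11.6 and 46.2 RPKM of Prm1. The age and genotype labels of both single libraries read 3 months and wild type, which differs from their titles, so which mice they came from is uncertain. The headers of the reference gene values also set both single libraries apart under the name Erkek, where the LES and RS libraries carry the name Gill. With 1 library each, the values have no replicate check.

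Il2rg and Cd74, both known from immune cells, differed in how the LES libraries spread. Il2rg had 64.4, 56 and 66.4 RPKM in the LES libraries and 25.5 RPKM in EES replicate 2, while Cd74 had 3.29, 17.5 and 79.5 RPKM in the LES libraries and 0.0737 RPKM in EES replicate 2. That library does not stand for its stage. Protamine and transition protein genes held 3.32% of its reads in annotated genes, against 8.30% and 7.12% in EES replicates 1 and 3. The macrophage marker Lyz2 had 0.902, 4.26 and 18.1 RPKM in the LES libraries, against 0.176, 0.215 and 0.172 RPKM in the RS libraries, in the same order as Cd74, and both were chosen with their values known.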
